A study of Mus musculus with 6 samples.

Results

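The 10 genes described here code for acyl-CoA thioesterases: Acot1, Acot2, Acot3, Acot4, Acot7, Acot8, Acot9, Acot11, Acot12 and Acot13, out of 23412 gene symbols in a table of read counts from mouse liver. They were taken by name from the table and were chosen by the difference in counts between liraglutide and PBS libraries. For this reason that difference is given for each of them as a description, with its standard error and without a p-value. The libraries hold liver RNA of mice of the inbred strain C57BL/6J, labelled as 8 weeks of age and all fed a high-fat diet for 4 weeks. In 3 libraries the mice had then received liraglutide at 300 µg/kg under the skin over 3 days (HFD_Lira3d), and in the other 3 PBS (HFD_PBS3d). Liraglutide, a long-acting analog of the gut hormone GLP-1, lowers food intake. Effects of lower intake and other effects of the drug cannot be told apart between these groups. The labels do not say that the libraries came from separate animals, so errors and p-values cover only differences among the libraries, and these may be technical.

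Acyl-CoA thioesterases split activated fatty acids (acyl-CoA) into the free acid and coenzyme A, the reverse of what acyl-CoA synthetases do. Type I enzymes have an alpha/beta hydrolase fold, and their genes lie side by side on mouse chromosome 12. Type II enzymes have a hotdog fold, and their genes are scattered over the genome. The enzymes work in the cytosol, in mitochondria and in peroxisomes, and several type I genes are known targets of PPAR-alpha, the nuclear receptor that turns on fat burning genes of the fasting liver.

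Total counts lay between 20888991 and 27007182 per library. Names such as Lira161 and PBS155 join a group to the number in the column heading. Values are CPM, the usual count scaled to library depth, here with TMM factors that adjust for composition. All 10 Acot genes passed the filter on low counts, with between 46 and 7953 counts per library. The summed level of 8 hepatocyte markers, among them Alb and Apoa1, was 75178 to 90779 CPM in the liraglutide libraries and 88382 to 109241 in the PBS libraries. Most of it was Alb, at 51368 ± 8970 against 68786 ± 11416 CPM with overlap. The markers did not move together: Serpina1a and Fgb were lower and Hnf4a higher without overlap. Ass1, at 0.17 and 0.041 CPM on average, did not pass the filter. Of 12626 tested genes, 1107 (8.77%) passed a Benjamini-Hochberg adjusted p of 0.05 in the quasi-likelihood test of edgeR, 46.5% of them upward, and 57.2% upward where library totals replaced the TMM factors. Leaving out Lira161, Lira162 or Lira164 gave 462, 393 and 1496 genes, and leaving out PBS155, PBS157 or PBS158 gave 962, 653 and 414.

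The type I members sit within 123 kb of chromosome 12 (GRCm38, the assembly of mm10) in the order Acot2, Acot1, Acot4, Acot3, followed by Acot5 and Acot6, which are relatives outside the 10. All of them lie on the plus strand. Acot2 spans 83987861 to 83993873, Acot1 84009490 to 84018371, Acot4 84038379 to 84048601 and Acot3 84052144 to 84060402 in GENCODE M21. Their reading frames are close copies. Acot1 and Acot2 share 95.3% of their aligned coding bases, Acot1 and Acot3 83.9%, and Acot1 and Acot4 76.6%. The coding sequence of Acot2 is 1359 bases long and that of Acot1 is 1257. The longest stretch on which Acot1 and Acot2 are identical runs over 273 coding bases, from base 887 to base 1159 of the Acot1 frame, and its first 60 bases show what a read from either gene would look like there.
Acot1 and Acot2, shared: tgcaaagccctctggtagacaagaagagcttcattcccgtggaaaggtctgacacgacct
Just before that stretch lies the 60-base window with the most differences between the 2 frames, 13 bases, shown with the differing bases in capitals.
Acot1, coding bases 823 to 882: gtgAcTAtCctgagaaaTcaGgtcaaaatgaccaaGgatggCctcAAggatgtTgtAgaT
Acot2, coding bases 946 to 1005: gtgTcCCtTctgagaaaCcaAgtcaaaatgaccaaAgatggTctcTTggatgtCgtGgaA
Of all 50-base windows of the Acot1 transcript, 23.7% occur unchanged in Acot2, and 33.6% occur in some other gene of the table. For Acot2 the shares were 24.5% with Acot1 and 27.7% with any gene. They were 7.69% for Acot3 and 5.13% for Acot4. No source used here says how reads that match several genes were counted, so the counts of Acot1 and Acot2, and their sum, are uncertain to that extent. The windows of Acot1 found elsewhere also lie in Acot5 and Acot3.

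The RefSeq promoter table (GRCm38.p6) matched 9 of the 10 genes, all but Acot13. The 4 type I promoters are printed because these neighbours differ in their values below, each from 250 bases before to 50 bases after the annotated start, on the plus strand. Capitals mark 3 motifs searched on both strands: AGGTCA, the half-site of nuclear receptors, CACGTG, the E-box, and CCAAT, the CCAAT box.
Acot2, chr12:83987611-83987910: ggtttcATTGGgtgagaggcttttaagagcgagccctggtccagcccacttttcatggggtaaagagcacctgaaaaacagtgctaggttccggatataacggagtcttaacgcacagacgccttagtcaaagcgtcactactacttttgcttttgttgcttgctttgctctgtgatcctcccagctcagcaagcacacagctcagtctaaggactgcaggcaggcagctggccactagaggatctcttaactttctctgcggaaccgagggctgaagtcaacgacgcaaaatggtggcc
Acot1, chr12:84009252-84009551: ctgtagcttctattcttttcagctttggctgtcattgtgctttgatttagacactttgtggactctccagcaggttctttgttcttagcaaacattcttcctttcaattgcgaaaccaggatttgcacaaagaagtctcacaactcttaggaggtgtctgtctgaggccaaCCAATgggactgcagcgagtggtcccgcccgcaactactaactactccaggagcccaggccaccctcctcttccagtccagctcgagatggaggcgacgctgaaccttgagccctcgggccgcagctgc
Acot4, chr12:84038129-84038428: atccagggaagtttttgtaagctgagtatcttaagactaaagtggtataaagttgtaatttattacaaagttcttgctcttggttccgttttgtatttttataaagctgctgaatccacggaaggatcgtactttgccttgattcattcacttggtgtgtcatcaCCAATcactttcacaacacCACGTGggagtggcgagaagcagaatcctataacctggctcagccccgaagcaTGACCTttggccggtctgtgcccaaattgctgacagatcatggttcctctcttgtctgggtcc
Acot3, chr12:84051894-84052193: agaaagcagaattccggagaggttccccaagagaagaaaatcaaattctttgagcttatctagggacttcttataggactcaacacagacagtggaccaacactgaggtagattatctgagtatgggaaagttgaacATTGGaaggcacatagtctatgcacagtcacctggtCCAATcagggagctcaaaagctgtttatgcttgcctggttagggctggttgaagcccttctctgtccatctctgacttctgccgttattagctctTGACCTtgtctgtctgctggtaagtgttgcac
The half-site stands in the windows of Acot3 and Acot4, 18 bases after and 13 bases before the start, and also in that of Acot12, but its letters do not occur in those of Acot1 or Acot2. It occurs in 16.3% of all 32851 promoters of that table. CCAAT occurs in all 4 windows printed, starting 79 bases before the start in Acot1, and in 37.4% of all promoters. CACGTG stands in the Acot4 window, and in 7.15% of all promoters. A loose form of the PPAR-alpha response element, a direct repeat of the half-site with some bases left free, was in none of the 9 genes' windows and in 0.381% of all promoters. A match describes letters only, and these windows say nothing of more distant sites.

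Acot1 codes for the cytosolic type I enzyme, which acts on long-chain acyl-CoA. Its level was 276, 307 and 252 CPM in Lira161, Lira162 and Lira164, against 88.5, 76.3 and 123 CPM in PBS155, PBS157 and PBS158. Every liraglutide library was above every PBS library, and the lowest of them stood well above the highest control. The means were 278 ± 27.5 and 96.0 ± 24.3 CPM (SD, n = 3 each), a 2.90-fold difference (log2 fold change 1.54 ± 0.18, SE). In liver pieces, fewer cells of a type and less RNA per cell cannot be told apart, here and in all that follows.

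Acot2 codes for the mitochondrial type I enzyme. It was at 41.1, 76.0 and 38.8 CPM in the liraglutide libraries, in the same order, and at 12.8, 10.8 and 16.4 CPM in the PBS libraries. Lira162 stood apart from the other liraglutide libraries, and all 3 were above the controls. Acot2 was 3.91-fold higher under liraglutide (log2 fold change 1.97 ± 0.31), and 1.58 without Lira162. With the counts of Acot1 and Acot2 added up, the log2 fold change was 1.60 ± 0.19, a sum in which Acot1 holds most of the counts. How shared reads bear on the value of Acot2 was not tested. Added over Acot1 to Acot6 it was 1.18 ± 0.22.

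Acot3 and Acot4 code for peroxisomal type I enzymes, Acot3 for long-chain acyl-CoA and Acot4 for succinyl-CoA and other dicarboxylic acyl-CoA. Acot3 was at 31.2, 74.8 and 95.6 CPM under liraglutide and at 44.0, 14.6 and 61.7 CPM under PBS. The groups overlapped, and the spread within each group was wide (log2 fold change 0.75 ± 0.66; from 0.35 without PBS157 to 1.20 without PBS158). Acot4 was at 63.7, 89.2 and 95.1 CPM against 66.9, 46.9 and 74.3 CPM (log2 fold change 0.40 ± 0.20). Its groups overlapped as well: Lira161 was below PBS155 and PBS158. Exons of 4732463B04Rik on the opposite strand and of Gm49366 on the same strand overlap both Acot3 and Acot4. The larger overlap was 396 bp for Acot3 and 615 bp for Acot4, and its part in their counts was not tested.

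**Figure D1:**
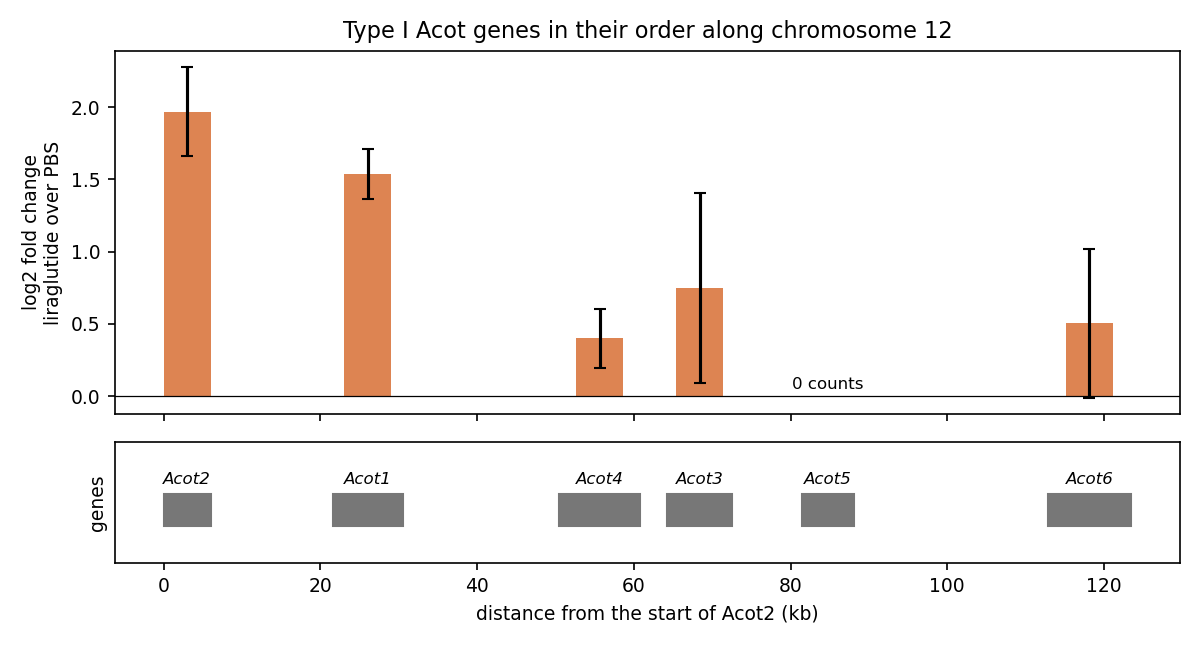
Log2 fold change (liraglutide over PBS, bars with SE, n = 3 per group) of the type I Acot genes, drawn at their place along chromosome 12 in kb from the start of Acot2, with gene bodies as grey boxes. Acot2 (1.97) and Acot1 (1.54) at one end stand above Acot4 (0.40), Acot3 (0.75) and the barely expressed Acot6 (0.50), and Acot5 had 0 counts.

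The remaining relatives of the locus gave little or no signal. Acot5, a peroxisomal enzyme, had 0 counts in all 6 libraries, which allows up to 3 counts in each from sampling alone. That bound does not cover reads lost in counting, and 22.8% of the 50-base windows of Acot5 occur in other genes. Acot6 had 9, 33 and 11 counts under liraglutide and 17, 7 and 13 under PBS. Acot10 on chromosome 15, whose frame is 97.2% identical to that of Acot9, also had 0 counts. Of its 50-base windows, 23.1% occur in Acot9. The hepatocyte marker Ass1 was at only 0.17 and 0.041 CPM in the same data. Whether the 0 counts of Acot5 and Acot10 come from the counting was not tested.

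Type II members were described next, starting with those whose groups did not overlap. Acot8 codes for a peroxisomal enzyme of broad specificity that also acts on bile acid intermediates. It was at 37.8, 32.5 and 26.7 CPM against 21.4, 23.9 and 24.7 CPM, all liraglutide libraries above all PBS libraries, though Lira164 lay close to PBS158 (log2 fold change 0.47 ± 0.13). Exons of Snx21 on the other strand cover 246 bp of Acot8. Snx21 had 168 to 235 counts per library and Acot8 514 to 843, and no source used here gives the strand setting, which leaves the overlap unassigned.

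Acot9 codes for a mitochondrial enzyme and was among the low members, at 4.87, 5.48 and 4.37 CPM against 3.41, 2.87 and 2.21 CPM. The groups were apart (log2 fold change 0.79 ± 0.22). The summed level of 7 endothelial markers was 183 to 290.5 CPM under liraglutide and 107 to 203 under PBS. That of 8 Kupffer cell and macrophage markers was 195 to 319 against 86.5 to 350.6 CPM. Without overlap, 6 stellate cell markers summed to 284 to 328 against 171 to 282 CPM, though each single one overlapped. The sum of 5 T and natural killer cell markers was 1.92 to 2.20 against 0.48 to 1.14 CPM, also apart. B cell and neutrophil sums overlapped. The fat cell sum given below was higher, and the bile duct and erythroid sums were lower. The part of these cells in the Acot9 difference was not tested.

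Acot11, also called Them1, is best known from brown fat, where cold induces it. It had the lowest level per length of the 10 and ran the other way from Acot1 and Acot2, at 2.41, 2.24 and 4.25 CPM under liraglutide against 7.91, 5.87 and 6.29 under PBS. All liraglutide libraries were below all PBS libraries, with Lira164 the nearest to them. The difference was 2.25-fold (log2 fold change -1.17 ± 0.26), and -1.53 without Lira164. These values rest on 50, 58 and 102 counts against 216, 137 and 131. Exons of Fam151a on the opposite strand overlap Acot11 by 1263 bp, and Fam151a had 1 count in Lira161 and 0 in each other library. The brown fat gene Ucp1 had 0 counts in every library, and Adipoq, Lep and Plin1, defining fat cell genes, had mean levels of 0.061, 0.014 and 0.027 CPM under liraglutide and 0.042, 0 and 0.014 under PBS. Of the other 3 of 7 fat cell markers, Cfd was at 0.21 ± 0.18 against 1.18 ± 0.77 CPM without overlap (log2 fold change -2.47 ± 0.67, edgeR adjusted p = 0.0544). Cidea was at 0.15 against 0.16 CPM, and Fabp4 was higher, at 14.9 ± 7.08 against 5.48 ± 0.60 CPM. The 7 summed to 9.12 to 23.0 CPM under liraglutide and 6.38 to 7.30 under PBS. The summed level of 6 bile duct markers was lower under liraglutide as well, 26.9 to 29.0 against 42.2 to 51.2 CPM. Most of that sum was Spp1, at 20.5 ± 1.17 against 36.3 ± 4.01 CPM, and Sox9 was at 4.38 against 6.40 CPM. Krt19, Krt7, Epcam and Cldn7 were low, with groups that overlapped. The sum of 6 erythroid markers was also lower, 42.9 to 100.1 against 152 to 165 CPM. Of these 6, Hba-a1, Hba-a2, Hbb-b1 and Hbb-b2 had 0 counts in every library, so that sum is Beta-s and Alas2 alone. The part of these cells in the Acot11 difference was not tested.

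Acot7 codes for a cytosolic enzyme that is abundant in brain. It was at 15.6, 15.8 and 16.2 CPM against 18.2, 16.8 and 17.6 CPM, groups that did not overlap but differed little (log2 fold change -0.15 ± 0.10, and -0.09 with library totals as the scaling). Acot12, the cytosolic acetyl-CoA hydrolase of liver, was at 311, 289 and 252 CPM against 238, 266 and 234 CPM (0.21 ± 0.11). Lira164 was below PBS157, so the groups overlapped. Exons of 4833422C13Rik on the opposite strand cover 149 bp of Acot12, and 4833422C13Rik had 32 to 57 counts per library. Acot13, also called Them2, is a mitochondrial and cytosolic enzyme that binds the phosphatidylcholine transfer protein. It was at 44.8, 34.7 and 33.8 CPM against 34.5, 39.1 and 40.8 CPM, with a log2 fold change of -0.02 ± 0.13 that took either sign as single libraries were left out (-0.16 to 0.05). The groups of Acot13 overlapped as well.

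**Figure D2:**
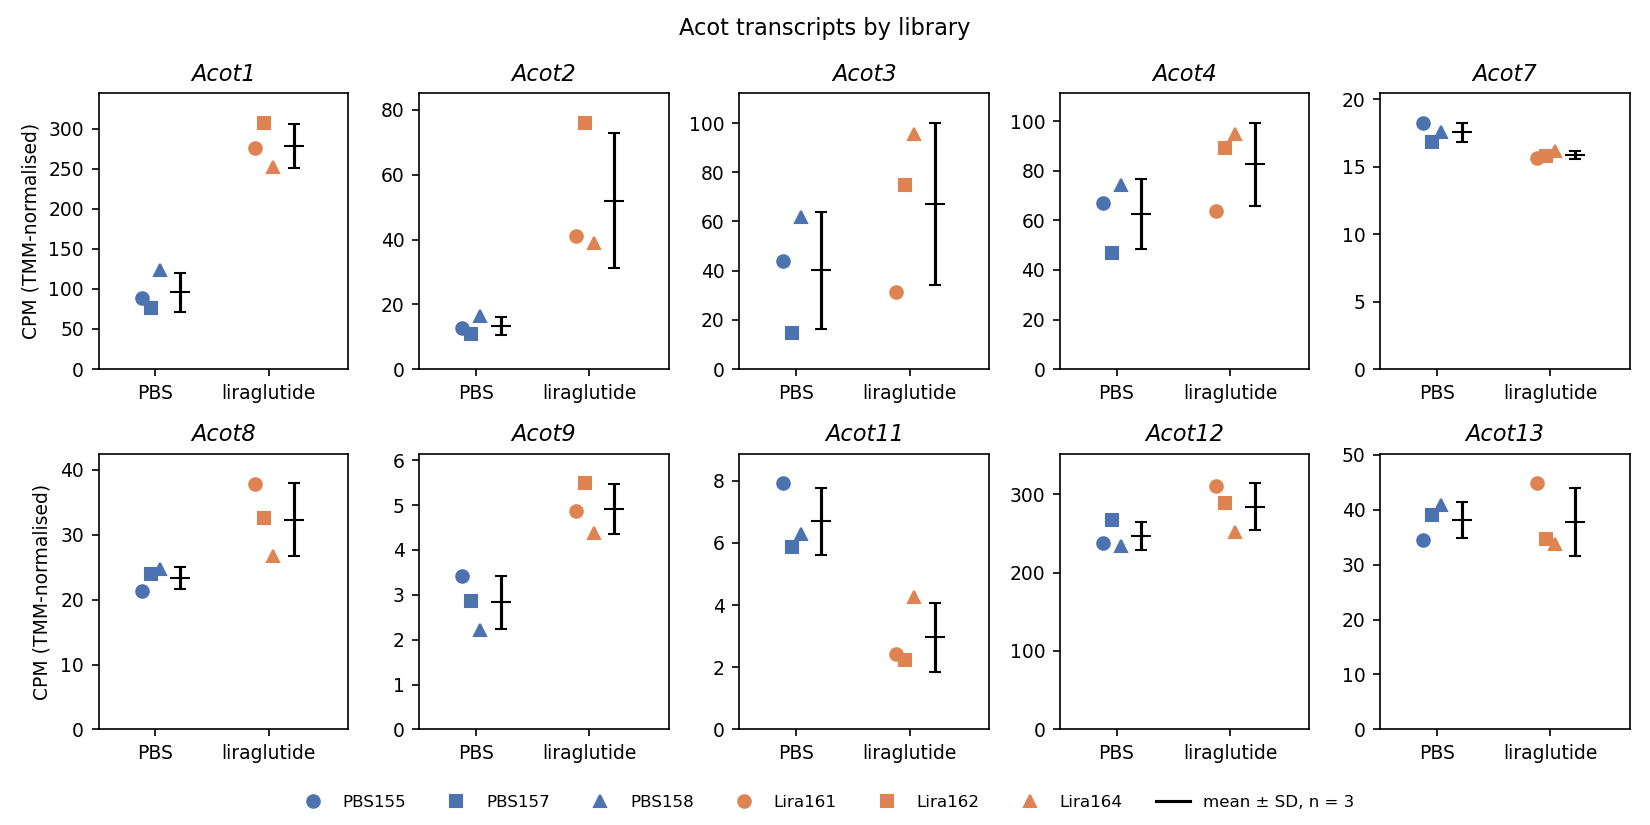
CPM of each Acot gene in each library, PBS in blue and liraglutide in orange, with the mean and SD (n = 3) in black and the vertical axis of each panel starting at 0. Acot1 and Acot2 are higher in all 3 liraglutide libraries, Acot11 is lower in all 3, and the groups of Acot3, Acot4, Acot12 and Acot13 overlap.

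Counted over the family, 4 members were higher without overlap of the groups (Acot1, Acot2, Acot8 and Acot9), 2 were lower without overlap (Acot7 and Acot11) and 4 overlapped, where 31.3% of all tested genes did not overlap, 14.9% higher and 16.4% lower. In the fit over all genes, 2 of the 10 passed the threshold upward (Acot1 and Acot2) and 1 downward (Acot11), against 4.08% and 4.69% of all tested genes. Nothing is read from these shares, since the genes were chosen with this comparison in view. The median log2 fold change was 0.44 over the 10 members and 0.01 over all tested genes. The fits that left out 1 library use the same comparison, so calls in them are a description too. From 393 of 12716 tested genes (without Lira162) to 1496 of 12793 (without Lira164) passed in them. Acot1 passed in all 6 of these fits. Acot2 passed in 4, missing the threshold without PBS155 or PBS157, and Acot11 passed only without Lira164 or PBS157. Acot8 passed in the fit without Lira164, and Acot9 in the fits without Lira164 or PBS155.

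**Figure D3:**
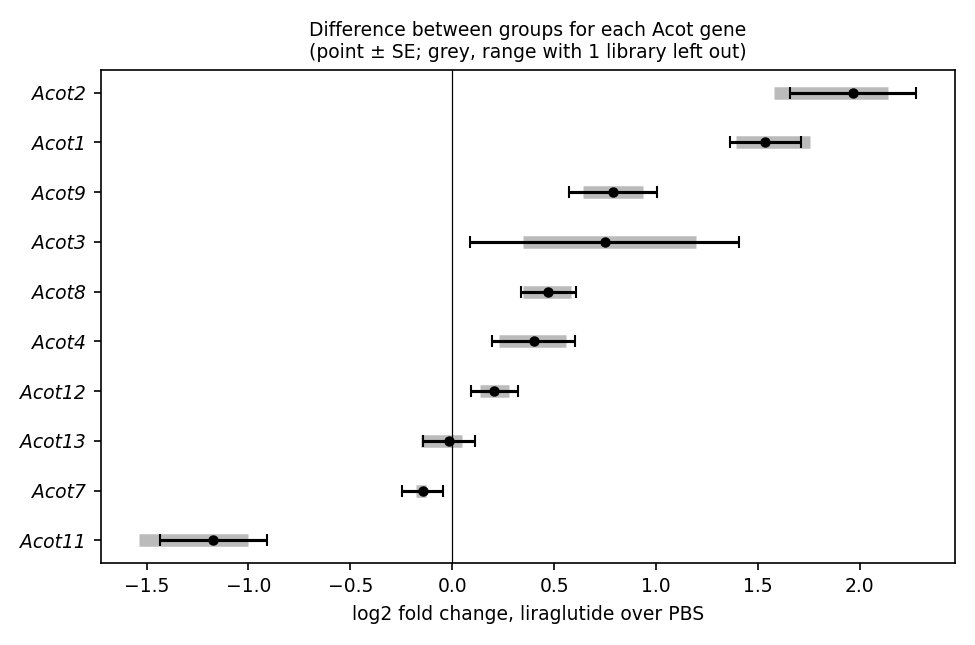
Log2 fold change (liraglutide over PBS) of the 10 Acot genes as points with SE, and in grey the range over 6 fits that each left out 1 library. Acot2 and Acot1 lie farthest to the right, from 1.39 to 2.14 in these fits, Acot11 lies between -1.53 and -1.004, and the range of Acot13 includes 0.

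To compare levels between genes, CPM were divided by the length of all annotated exons merged, in kb. Under PBS the highest level per length was that of Acot12, at 74.7 ± 5.40 CPM per kb, then Acot13 at 51.3 ± 4.39 and Acot1 at 24.5 ± 6.20, each apart from its neighbour in every library. Below them came Acot8 (11.7 ± 0.86), Acot3 (11.7 ± 6.92), Acot4 (9.39 ± 2.12) and Acot7 (8.26 ± 0.33). From Acot8 down to Acot7 the range of each overlapped that of the next. Acot2 followed at 6.07 ± 1.30, apart from Acot7. Acot9 (1.24 ± 0.26) and Acot11 (1.10 ± 0.18) were lowest, with ranges that overlapped. Taking the longest transcript as the length moved 5 of these PBS levels by at least their SD. Acot1 was then at 36.7 ± 9.30 and Acot8 at 18.3 ± 1.34 CPM per kb, and Acot7 (11.7 ± 0.46) came above Acot4 (10.1 ± 2.28).

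Under liraglutide Acot1 stood at 71.0 ± 7.02 CPM per kb, above Acot13 (50.7 ± 8.23) in this order and overlapping with Acot12 (86.2 ± 9.04). Acot2, the eighth under PBS, was the fourth here at 23.7 ± 9.49, with a range that overlapped that of Acot3. With the longest transcript as the length, Acot1 came first under liraglutide, at 106.5 ± 10.5 against 92.8 ± 9.73 CPM per kb for Acot12, and Acot2 stood below Acot8 (25.3 ± 4.37). The merged exons of Acot1 cover 3919 bp, those of a retained intron transcript included, and its longest transcript 2613 bp. The ratio of Acot1 to Acot12 per length was 0.75, 0.89 and 0.84 in the liraglutide libraries and 0.31, 0.24 and 0.44 in the PBS libraries. That of Acot1 to Acot2 was 3.76, 2.26 and 3.64 against 3.89, 3.96 and 4.204, with Lira162 apart from the rest.

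All 10 members added up to 291, 309 and 269.6 CPM per kb in the liraglutide libraries and 192, 191 and 216 in the PBS libraries. The type I members made up 108, 148 and 124 of this against 51.2, 35.7 and 68.0 under PBS, without overlap. The 6 type II members together were at 183, 160.8 and 146 against 141, 155.5 and 149, where the groups overlapped. Sorted by where the enzymes are known to work, the cytosolic members (Acot1, Acot7, Acot11 and Acot12) summed to 173, 174 and 149 against 105, 109 and 112 CPM per kb. For the mitochondrial members (Acot2, Acot9 and Acot13) the sums were 81.1, 83.6 and 65.0 against 53.7, 58.7 and 63.4. For the peroxisomal members (Acot3, Acot4 and Acot8) they were 37.5, 51.4 and 55.4 against 33.5, 23.2 and 41.4. Only here did the groups overlap among these 3 compartments, though the mitochondrial sums of Lira164 and PBS158 were close. Most of the cytosolic difference was Acot1 (mean 71.0 against 24.5), while Acot7 and Acot11 were lower. Most of the mitochondrial difference was Acot2 (mean 23.7 against 6.07). Acot13, the largest part of that sum and also cytosolic, was level (50.7 against 51.3). As a share of the family, Acot1 went from 12.2 ± 2.19% under PBS to 24.5 ± 0.79% under liraglutide. Acot2 went from 3.02 ± 0.44% to 8.06 ± 2.72%, while Acot12 made up 37.6 ± 4.77% and 29.7 ± 2.33%. With the longest transcript as the length, the share of Acot1 was 15.8 ± 2.78% and 30.6 ± 0.96%.

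**Figure D4:**
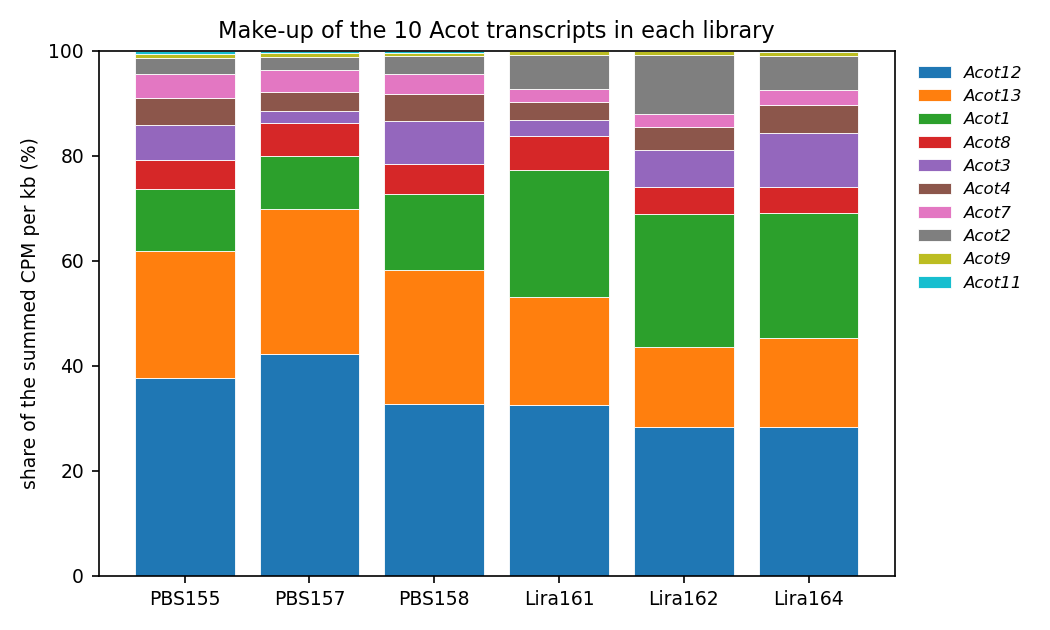
Share of each Acot gene in the summed CPM per kb of the 10 genes (%), as stacked bars for the 3 PBS and the 3 liraglutide libraries. Acot12, Acot13 and Acot1 form the largest blocks in every library, and the Acot1 block is between 10.2% and 14.5% under PBS and between 23.9% and 25.4% under liraglutide.

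The spread between libraries of 1 group, which does not use the difference between the groups, was unequal among members. The coefficient of variation of CPM under PBS was 3.95% for Acot7, 7.22% for Acot12, 7.33% for Acot8 and 8.55% for Acot13, but 25.3% for Acot1, 21.4% for Acot2, 22.5% for Acot4 and 59.4% for Acot3. Thus the type I members varied more between PBS libraries than these 4 type II members, while Acot9 (21.2%) and Acot11 (16.2%), with few counts, lay in between or close to the former. Under liraglutide this division did not hold: Acot1 varied by 9.88%, less than Acot12 (10.5%), Acot13 (16.2%) and Acot8 (17.2%), and Acot4 by 20.2% and Acot2 by 40.1%. Acot3 again varied most (48.9%) and Acot7 least (1.88%).

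The order of the libraries was compared as well. In the PBS group all 4 type I members were lowest in PBS157 and highest in PBS158, an order found in 12.8% of all tested genes and in 0 of the 6 type II members. Of the type I relatives, Acnat2 had it too. So did Acnat1, at 179, 166 and 215 CPM in PBS155, PBS157 and PBS158, though Acnat1 was lower under liraglutide without overlap. Acot6 was lowest in PBS157 and at 0.62 CPM in both others, and Baat was lowest in PBS155. Acnat2 and Acot6 were singled out after their values were seen. Under liraglutide Acot1 and Acot2 had the order Lira164, Lira161, Lira162 from lowest to highest, as did the type II member Acot9 and Acnat2, and 17.6% of all tested genes. Acot3 and Acot4 had the order Lira161, Lira162, Lira164, as did the type II member Acot7 and 17.8% of all tested genes. Relative to the group mean, Lira162 was higher by 0.62 for Acot2, 0.90 for Acot6 and 0.75 for Acnat2 on the log2 scale. The part that sequence shared between these copies, given above, has in these orders was not tested.

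**Figure D5:**
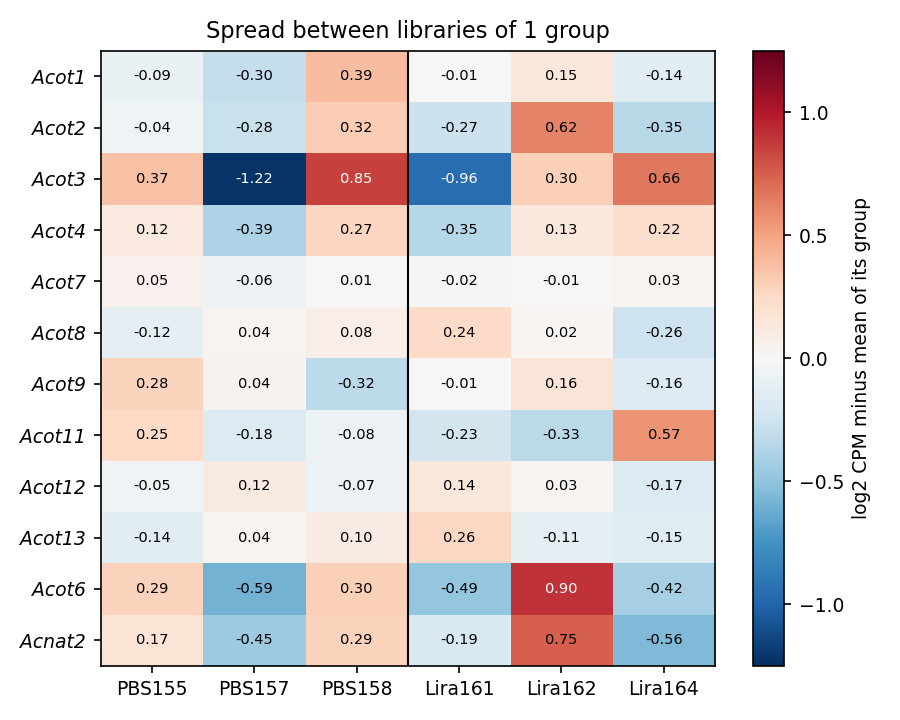
Log2 CPM minus the mean of the library's own group, for the 10 Acot genes, Acot6 and Acnat2 (rows) in the 6 libraries (columns), red above and blue below the group mean. The type I genes and Acnat2 are below their mean in PBS157 and above it in PBS158, and Acot3 spans the widest range, from -1.22 to 0.85 under PBS.

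The 5 genes whose profile over the 6 libraries was most like that of Acot1, among 9250 other tested genes with a mean of at least 5 CPM, were Hes1, Hamp, Slc25a34, Thbd and Plin4. Likeness was the root mean square difference of log2 CPM relative to the PBS mean, 0.061 for Hes1 and 0.24 to 0.29 for the others. Hes1, a transcriptional repressor, was at 22.1 against 7.19 CPM on average (log2 fold change 1.62 ± 0.19), and Plin4 codes for a lipid droplet coat protein (1.81 ± 0.32). These differences are descriptions with no test, since likeness to Acot1 fixed them. For the nearly level profile of Acot12 the closest were Zfp672, Scamp3, Tbc1d22a, Tinf2 and Dnase2a, at distances of 0.022 to 0.038.

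Other enzymes that handle acyl-CoA were counted from lists written with earlier results of these data known. The counts stand beside 4.08% of all tested genes that rose and 4.69% that fell, and 1 gene weighs heavily in lists this short. Among 11 tested thioesterases and type I relatives outside the family, Baat fell and none rose (median log2 fold change -0.05). Baat, which joins bile acids to taurine or glycine and is a type I relative of Acot1, was at 227 ± 11.7 against 336 ± 44.6 CPM (-0.56 ± 0.12, edgeR adjusted p = 0.0225), and lost its call without Lira161, Lira162, PBS157 or PBS158 (adjusted p up to 0.0791). Acnat2 was at 37.7, 72.2 and 29.2 CPM against 20.8, 13.5 and 22.6 (1.29 ± 0.39, edgeR adjusted p = 0.106). Acnat1 was at 158.4 ± 8.02 against 187 ± 25.0 CPM and Lypla1 at 180 ± 10.9 against 208 ± 11.2 CPM, both lower without overlap. Of 18 acyl-CoA synthetases, the enzymes that run the opposite reaction, 5 fell and 2 rose (median -0.16). Acsl3 fell by 1.39 ± 0.21, Acss2 by 0.98 ± 0.14, Slc27a5 by 0.67 ± 0.11 and Acsm5 by 0.60 ± 0.12 on the log2 scale. With libraries left out in the order used above, Lira161 to PBS158, the 5 became 3, 2, 5, 5, 3 and 3 and the 2 became 0, 0, 2, 1, 1 and 0. Of 16 genes of coenzyme A synthesis, transport and breakdown, Ppcs, an enzyme of its synthesis, rose (0.71 ± 0.13, adjusted p = 0.0120; 0.0524 without Lira162). Pank1 was at 466 ± 57.4 against 373 ± 9.36 CPM and Nudt7, a peroxisomal hydrolase of coenzyme A, at 192 ± 90.7 against 487 ± 154.7 CPM (-1.34 ± 0.43, adjusted p = 0.117).

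In peroxisomal oxidation 3 of 21 rose and 1 fell (median -0.02): Ehhadh (1.73 ± 0.34), Crat (0.73 ± 0.12) and Acaa1b (0.66 ± 0.17) were higher and Pecr (-1.09 ± 0.15) lower. In mitochondrial oxidation 4 of 25 rose, among them Cpt1a (0.55 ± 0.13), Bdh1 (0.60 ± 0.11) and Acadl (0.51 ± 0.13). Acadsb fell (-0.68 ± 0.12), and the median of the list was 0.22. The omega oxidation list, whose dicarboxylic products are the substrates of Acot4, had 2 of 14 higher, Cyp4a14 (2.01 ± 0.31) and Aldh3a2 (0.94 ± 0.12), and Adh4 lower (-1.28 ± 0.25; median 0.17). Of 11 acyl-CoA and fatty acid binding proteins Pctp, the partner of Acot13, rose (0.56 ± 0.12), as did Fabp2 (0.74 ± 0.15) and Fabp4 (1.44 ± 0.34), with a median of 0.11. Of 16 genes of fasting and PPAR-alpha control 4 rose, Fgf21 (3.10 ± 0.27), Pdk4 (2.57 ± 0.34), Lpin2 (1.11 ± 0.18) and Hnf4a (0.53 ± 0.13), with a median of 0.26, while Ppara itself was at 666 ± 38.4 against 613 ± 81.5 CPM. With libraries left out in that order, the higher members numbered 1, 1, 4, 1, 2 and 1 in peroxisomal oxidation, 0, 1, 3, 1, 1 and 1 in mitochondrial oxidation, 2, 1, 2, 2, 4 and 2 in omega oxidation and 0, 0, 4, 2, 1 and 1 among the binding proteins. Adh4 kept its call only without Lira162 or Lira164.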

How the data were processed

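RNA was measured in 6 mouse liver libraries, 3 per group. The values deposited by the authors are counts, whole numbers for each gene symbol with no normalization. STAR and mm10 are named, per the submitters' processing notes. Counting tool, annotation, strand setting and versions: not given in the sources used here. Column numbers match no label, so columns were assigned to groups only.

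Genes were kept by filterByExpr (12626 of 16949 with a count), scaled by TMM and tested in edgeR 4.0.16 under R 4.3.3 (glmQLFit with robust estimation, glmQLFTest, group as the only term), with Benjamini-Hochberg adjustment over all tested genes and a threshold of 0.05. The standard error is the log2 fold change divided by the square root of F. Log2 CPM used a prior count of 2. No pair of libraries agreed within sampling noise (chi-square per degree of freedom of at least 31.0).

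Members, lists and tests were chosen with earlier results of these data known. All members were named. Of each list up to 4 called genes with the smallest p were named, or 2 of the most abundant where fewer than 2 were called, and the 5 genes closest in profile to Acot1 and to Acot12. Ppara, Acnat2 and Acot6 were added after their values were seen. Positions and lengths came from GENCODE M21, and alignments were made with Biopython 1.88. Correlations between libraries were replaced by library orders, since 3 deviations from a group mean are not independent.

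There were 5 simulated sets with the means and library sizes of this comparison, 200 changed genes each among 12493 to 12522 tested. The share recovered was 27.8% at 1.5-fold, 70.6% at 2-fold and 95.7% at 4-fold. Of 701 calls 64 were false, a larger share than the threshold of 0.05. Counts were drawn independently for each gene, and fewer genes were changed than the 1107 called in the data. These shares may therefore not hold for the data.

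Alternatives were DESeq2 size factors, library totals, all genes of at least 1 count, genes with a mean of at least 5 CPM, the Wald test of DESeq2 1.42.0, each library left out, counts of close copies summed, and the longest transcript as length. Figures were drawn with matplotlib 3.10.9.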

Additional observations from a re-analysis of the deposited data

How the results depend on the processing

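Of 110 alternative log2 fold changes of the Acot genes, 108 moved by less than the spread between libraries, the pooled SD within groups. The others were Acot7 with library totals (-0.09) and Acot1 summed with Acot2 to Acot6 (1.18). Leaving out 1 of 3 libraries can hardly shift a group mean by more than that SD. The outcome of those fits was thus largely fixed in advance, and nothing is read from the 108. For Acot3 the SD was as wide as 0.97. No Acot gene that passed the threshold changed direction in any alternative. The number of Acot genes past the threshold, 2 higher and 1 lower, was 4 higher with the Wald test of DESeq2 and 4 with all genes of at least 1 count, and 0 lower at a mean of at least 5 CPM, where Acot9 and Acot11 were not tested. With 1 library left out it ranged from 1 to 4 higher and from 0 to 1 lower, and the number of changed genes from 393 to 1496.

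With the Wald test of DESeq2 the lists had 5 binding proteins higher and 1 lower, 2 coenzyme A genes lower, 7 mitochondrial genes higher, 4 omega oxidation genes higher, 1 thioesterase relative higher, and 5 peroxisomal genes higher and 2 lower. With all genes of at least 1 count, 1 synthetase was higher, 1 coenzyme A gene lower, 0 omega oxidation genes lower and 2 peroxisomal genes lower. A mean of at least 5 CPM gave 2 lower peroxisomal genes, and library totals gave 7 higher mitochondrial genes. With 1 library left out, the range was 0 to 4 higher and 0 to 1 lower for binding proteins, 0 to 2 higher and 2 to 5 lower for synthetases, 0 to 1 higher and 0 to 1 lower for coenzyme A genes, 3 to 5 higher for fasting genes, 0 to 3 higher and 1 to 2 lower for mitochondrial genes, 1 to 4 higher and 0 to 2 lower for omega oxidation, 0 to 1 lower for relatives and 1 to 4 higher for peroxisomal genes. Of 308 alternative fits of named list genes outside the family, 53 lost a call, 1 gained one and 0 reversed. The cause was not tested.

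No paired analysis was possible because the columns carry no triplicate number of the labels. Acot9 and Acot11 had the fewest counts of the 10, and the standard errors of Acot3 (0.66) and Acot2 (0.31) were larger than theirs (0.22 and 0.26).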
